A study of Homo sapiens with 11 samples.

Results

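The genes studied here encode the proteins of the mitochondrial ribosome that carry an MRPL symbol, for the large subunit, or an MRPS symbol, for the small subunit. They were found by symbol alone, with MRPL or MRPS followed by a number and at most 1 letter from A to C. The pattern matched 77 of the 25590 genes in the table, 48 MRPL and 29 MRPS genes. They were measured by RNA sequencing in 11 tumours that grew under the skin of young male athymic nude mice (Crl:NU-Foxn1nu) from PC-3, a human prostate carcinoma cell line. 5 tumours came from mice injected with PBS as control and 6 from mice injected with A2M*, the transformed form of the proteinase inhibitor alpha2-macroglobulin, into the peritoneum. All tumours share the cell line and the host strain. The host lacks a thymus and so mature T cells, and there was 1 library per tumour. The tumours are named by group and number, PBS-123 to PBS-127 and A2M-128 to A2M-132 with A2M-112. The question of the comparison was what A2M* changes in the tumour cells, and only reads sorted as human entered the tables. The samples are bulk tumours, and values are scaled to the human counts of each tumour. They therefore show neither the number of tumour cells nor the total RNA per cell.

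Mitochondria translate their own messenger RNAs, which encode core subunits of the respiratory chain, on ribosomes of their own. The RNA of these ribosomes comes from mitochondrial DNA, but every protein of them is encoded in the nucleus, made in the cytosol and imported. About the large subunit it is known that it links the amino acids and holds the tunnel through which the new chain leaves, while the small subunit reads the messenger. Many of the proteins descend from those of bacterial ribosomes, and the others were added in the mitochondrial lineage. The genes lie scattered over the nuclear genome, on 21 chromosomes in these data.

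Because a group of genes so scattered must be switched on from many starts, the start regions of some members are shown first. RefSeq (GRCh38.p14) gave 1 or more promoter windows, from 250 bases before to 50 bases after the start, for 68 of the 77 members. The windows were searched on both strands for the letters AAGATGGC, which YY1 is known to bind, and for CCGGAAG, the core bound by the ETS family, to which GABPA belongs. AAGATGGC was found in 21 of the 68 members (30.9%), against 4.66% of the 15843 coding genes with a window and 2.89% of all 35116 promoters. In 15 members it lay just after the start on the strand of the gene, beginning between 6 and 23 bases after it. The letters hold an ATG, and their first AAG can be shared with the end of CCGGAAG. The following windows of at most 30 bases run 5′ to 3′ along the gene and show this placing in the 2 most abundant large-subunit members, in the lowest small-subunit member and in genes of both subunits, with AAGATGGC in capitals.
MRPL51 (GRCh38.p14, chr12:6493223-6493252, minus strand): gggtaaggcccAAGATGGCtgtcttcgcct
MRPL20 (GRCh38.p14, chr1:1407260-1407289, minus strand): ccgacccgggcAAGATGGCagcggcgctgc
MRPL46 (GRCh38.p14, chr15:88467362-88467391, minus strand): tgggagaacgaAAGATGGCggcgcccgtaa
MRPS18A (GRCh38.p14, chr6:43687764-43687793, minus strand): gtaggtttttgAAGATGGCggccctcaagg
MRPS18B (GRCh38.p14, chr6:30617852-30617881, plus strand): gggcgtacgtcAAGATGGCggcgtctgtat
MRPS30 (GRCh38.p14, chr5:44808949-44808978, plus strand): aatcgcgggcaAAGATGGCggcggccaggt
MRPS24 (GRCh38.p14, chr7:43869480-43869509, minus strand): ccgcttggcccAAGATGGCggcctccgtgt

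CCGGAAG was found in 29 of the 68 members (42.6%), against 16.5% of coding genes and 10.3% of all promoters, and 22 members held it within the 100 bases before the start. At least 1 of these 2 motifs was present in 42 members (61.8%), against 3173 of the 15843 coding genes. The shares were alike in the subunits, with CCGGAAG in 17 of 41 large-subunit (41.5%) and 12 of 27 small-subunit members (44.4%), and AAGATGGC in 13 (31.7%) and 8 (29.6%). The next windows show CCGGAAG, or its reverse complement, in capitals for MRPS26 and MRPS12, the small-subunit members with the largest spread between tumours, and for MRPL18 and MRPS18A, which are described below.
MRPS26 (GRCh38.p14, chr20:3045975-3046051, plus strand): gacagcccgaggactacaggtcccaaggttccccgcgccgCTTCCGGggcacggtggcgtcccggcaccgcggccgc
MRPS12 (GRCh38.p14, chr19:38930928-38930956, plus strand): acggatagcgcCCGGAAGaggctagaagc
MRPL18 (GRCh38.p14, chr6:159790401-159790466, plus strand): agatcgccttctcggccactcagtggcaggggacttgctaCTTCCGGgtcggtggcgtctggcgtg
MRPS18A (GRCh38.p14, chr6:43687792-43687862, minus strand): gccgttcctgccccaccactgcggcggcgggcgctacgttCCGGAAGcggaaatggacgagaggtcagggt

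Of the other motifs searched, GCGCANGCGC, bound by NRF1, was in 9 members (13.2%), against 9.67% of coding genes. GGGCGG, bound by the SP factors, was in 41 (60.3%), against 64.3%, and TATAAA in 3 (4.41%), against 12.4%. A match of letters is a description of the window and not a site. On GRCh37, 17 of the 77 members (22.1%) had the start of another gene within 1000 bases on the opposite strand, pointing away, against 8.45% of 20116 protein-coding genes. MRPL46 (chr15:89002708-89010621, minus strand) and MRPS11 (chr15:89010684-89024007, plus strand) form such a pair across the subunits, with starts 63 bases apart. MRPL18 shares its start region with TCP1, a subunit of a cytosolic chaperonin, at 109 bases, MRPL36 with NDUFS6, of respiratory complex I, at 41 bases, and MRPL21 with IGHMBP2, a helicase, at 28 bases.

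Totals lay between 16958533 and 35874381 counts per tumour, and 3 counts, the least taken as shown, were worth 0.0836 to 0.177 RPM, for counting error only. The carcinoma markers KRT8, KRT18, KRT19, EPCAM and CDH1 were high in every tumour, with mean RPKM between 79.5 (CDH1) and 394 (KRT19), and none passed the test between the groups. All 5 had a log2 fold change below 0 (edgeR, A2M* against PBS), with a median of -0.143. Of the prostate luminal genes, KLK3 was listed at 0 in every tumour, and PC-3 is known for making little of it. TMPRSS2, at 14.6 RPKM, made up most of that list. Markers of host cells were mostly low, and few genes made up each sum. The 6 leukocyte markers summed to 16.4 to 21.2 RPKM in PBS and 17.6 to 21.1 in A2M* tumours. CD68, at 13.1 RPKM, and LYZ, at 4.5, made up most of this, and the others had means between 0.222 (PTPRC) and 0.629 (CSF1R). The 6 fibroblast markers summed to 54.2 to 113 and 54.1 to 156 RPKM, with COL1A1 at 89.0 and DCN at 0.0146, and the 5 endothelial markers to 3.64 to 5.31 and 3.44 to 5.21. PECAM1, at 3.93 RPKM, made up most of the endothelial sum, and the others had means between 0.057 (CDH5) and 0.133 (TEK). At an unadjusted p under 0.05 in edgeR, COL1A2 was higher (adjusted p = 0.699) and VWF lower (adjusted p = 0.648) in A2M* tumours. Each was 1 of the 4 tested markers of its list, and 7.08% of all genes tested had such a p in either direction. Both were low, COL1A2 at 0.53 RPKM and VWF at 0.0923 RPKM, with 11 to 33 counts. None of the 6 leukocyte markers passed. The 4 fibroblast markers tested all had a log2 fold change above 0, with a median of 0.448 and standard errors of 0.277 to 0.404. Above 0 were also 4 of the 6 leukocyte markers and 1 of the 4 endothelial markers tested. The part of such differences in the results was not tested.

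The members were among the well-expressed genes. The deposited RPKM values divide each count by the total of the tumour and by the exon length of the gene in kilobases, so that levels of different genes can be set side by side. Averaged over the 11 tumours, 70 of the 77 members exceeded 10 RPKM and 74 exceeded the median of the 16630 genes that were tested, 6.55 RPKM. The median member stood at 34.0 RPKM, and the tested members at a median percentile of 86.4 among all genes tested. All members together took between 0.355% and 0.416% of the counts of a tumour.

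Within the large subunit the levels spanned from 5.53 to 136 RPKM. MRPL51, a protein added in mitochondria, was the most abundant, with a mean of 136 RPKM. In CPM, which are counts scaled to the TMM-normalised total and serve to compare tumours, it was at 93.5, 97.3, 93.4, 84.7 and 82.1 in PBS-123 to PBS-127 and at 86.1 (lowest), 94.9 (median) and 96.9 (highest) in A2M* tumours. The groups overlapped. MRPL20, the relative of a bacterial protein needed to assemble the large subunit, followed with a mean of 118 RPKM, and MRPL33, of the central protuberance, with 92.3. PBS-123 was the highest of all for MRPL20, at 102 CPM, and every other tumour lay between 75.1 and 91.2. By deposited RPKM the lowest large-subunit members were MRPL22, which lines the exit tunnel, at 5.53, MRPL19 at 7.84 and MRPL15 at 9.53 RPKM. MRPL22 was between 4.77 and 6.25 RPKM in each tumour and did not overlap MRPL19, which lay between 6.40 and 9.73. Per kilobase of the canonical transcript both ends changed: MRPL20 (108 to 147 over the tumours) had a higher mean than MRPL51 (89.6 to 109), and MRPL42 (3.18) and MRPL50 (5.43) had lower means than MRPL22 (5.53). The counts were still those on the authors' exons, only 0.209 (MRPL42) and 0.306 (MRPL50) times as long as the canonical transcript. This lowers the values of MRPL42 and MRPL50.

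In the small subunit MRPS16 led with a mean of 87.9 RPKM and a range of 82.6 to 97.0. MRPS26, a mitochondrial addition, followed at 76.3 RPKM, but its range of 55.8 to 97.1 overlapped that of MRPS16. MRPS21 was next at 57.1 RPKM and hardly varied, between 54.6 and 60.2. The low end was held by MRPS14 at 7.94 RPKM, MRPS18B at 6.20 and MRPS24 at 0.260. The order of the last members also depended on how the length of a gene was taken.

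**Figure D1:**
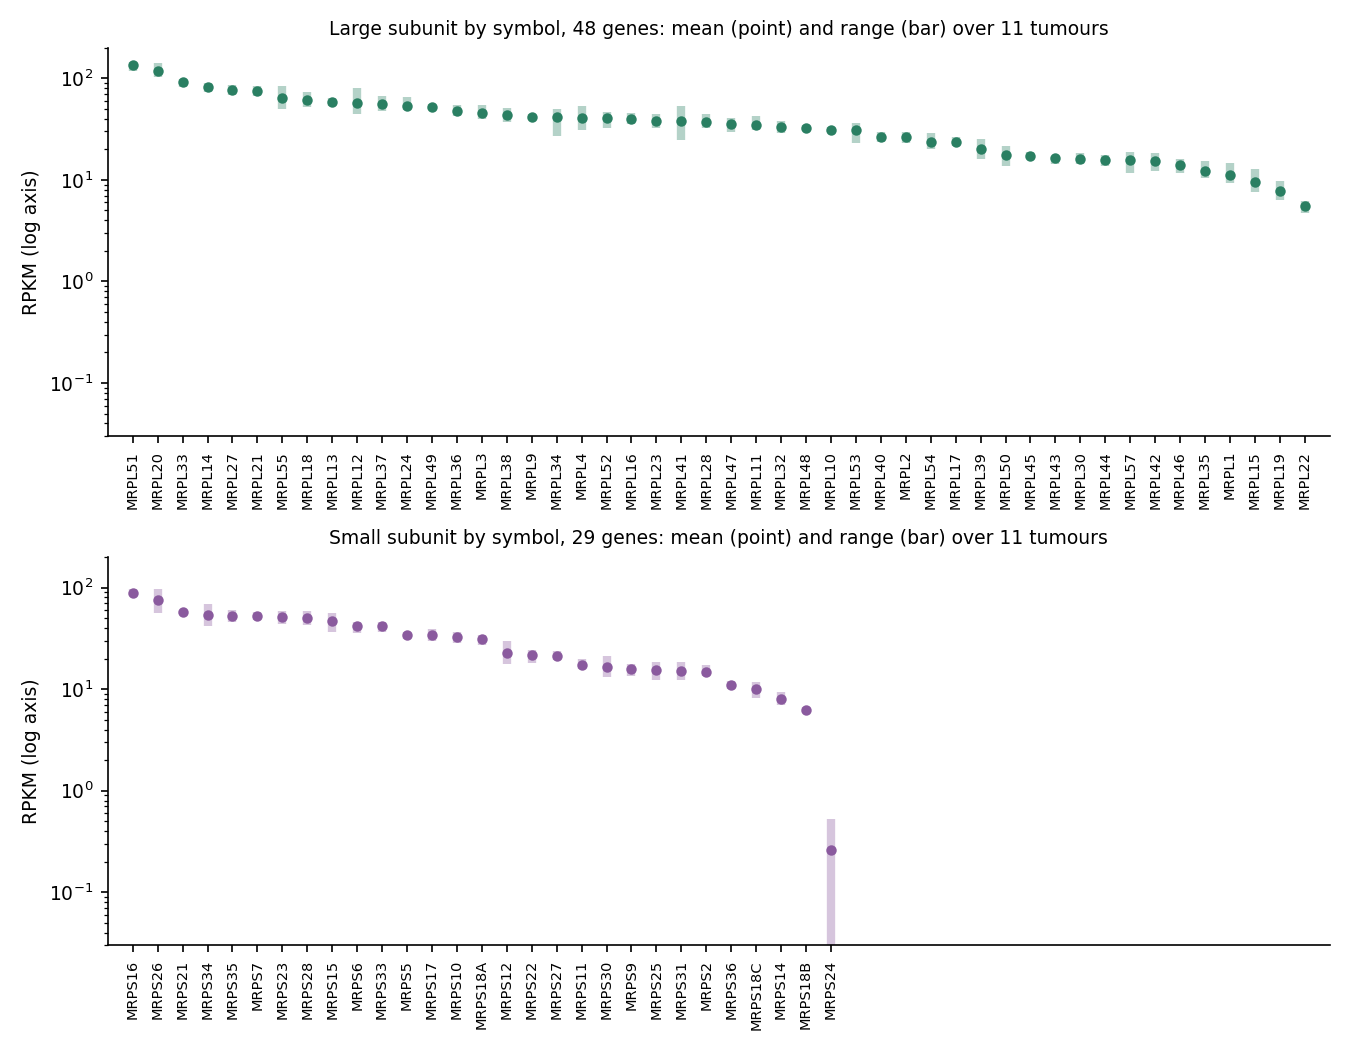
Deposited RPKM (log axis) of each member, sorted by mean, with the large subunit above and the small subunit below. Points are means and bars ranges over the 11 tumours. All members but MRPS24 have means between 5.53 and 136 RPKM, and MRPS24 lies below 1 in every tumour, with 1 tumour at 0 that a log axis cannot show.

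MRPS24, the relative of a bacterial small-subunit protein, was the exception. Between 0 and 11 counts fell on it, with a median of 5, and only 6 of the 11 tumours had more than 3. By GENCODE annotation on GRCh37, 90.9% of the bases of its canonical exons (chr7:43906157-43909492, minus strand) also belong to URGCP-MRPS24, a read-through gene that was counted separately and listed at 0 in all tumours. The upstream gene URGCP had 962 to 2162 counts. How the counting treated reads in exons of more than 1 gene is not given in the sources used here, so that the value of MRPS24 is uncertain, and whether this overlap set it was not tested.

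MRPS18A, MRPS18B and MRPS18C are paralogues, all relatives of 1 bacterial protein, and sit at different places of the mitochondrial ribosome, with MRPS18A in the large subunit in spite of its symbol. Their deposited levels were 31.1 RPKM for MRPS18A, 6.20 for MRPS18B and, between tumours, 8.22 to 11.8 for MRPS18C. For MRPS18B (chr6:30585617-30594172, plus strand) the authors' exon length was 10738 bases, 7.68 times the 1398 bases of the GENCODE canonical transcript. Taken per kilobase of the canonical transcript, MRPS18B stood at 47.7 and moved from rank 28 to rank 7 of the 29 small-subunit members. MRPS18A stayed at 31.8 and MRPS18C was at 7.23. The order of the 3 paralogues therefore turned with the length that was used, and why the authors' length was so large was not tested. The same ratio was 2.93 for MRPL43, 1.97 for MRPL4 and 1.51 for MRPS2, and between 0.8 and 1.5 for 62 members. For 11 members it was under 0.8, so that their deposited levels were higher than those per canonical kilobase. The lowest ratios were those of MRPS33 (0.194), MRPL42 (0.209), MRPS23 (0.266), MRPL50 (0.306) and MRPS17 (0.328). MRPS33 went from 42.0 to 8.15 and MRPS23 from 51.0 to 13.6. The counts came from the authors' exons in either case, so that counts and canonical lengths did not match. Where the ratio was low, the canonical length held bases whose reads were not counted, which lowers the value. Where it was high, reads from outside the canonical transcript could be counted, which can raise it.

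MRPS24 was 1 of 11 members with at least 10% of the canonical exon bases in exons of another counted gene. The others with the largest shares were MRPL53 with CCDC142 (99.2%), MRPS18C with FAM175A (83.6%), MRPS18A with RSPH9 (60.6%) and MRPS34 with EME2 (32.6%). The kit does not mark strand, so that reads from such exons cannot be told apart, and the levels of these members are uncertain to that extent. Separate loci that are copies of members were counted apart, MRPL42P5 with 3 to 9, MRPL45P2 73 to 219 and MRPS31P5 197 to 423 per tumour.

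The large-subunit genes together were more abundant than the small-subunit genes, in nearly the same proportion in every tumour. In PBS-123 to PBS-127 the 48 MRPL genes summed to 2153, 1867, 1899, 1815 and 1825 RPKM, and in the A2M* tumours to 1875 at the lowest, 1937 at the median and 2023 at the highest. The 29 MRPS genes summed to 1043, 896.9, 911.2, 909.5 and 889.0 RPKM in PBS and to 923.6, 937.2 and 982.8 in A2M* tumours, in the same order. The groups overlapped for both subunits, and PBS-123 alone carried the top of the PBS range. The ratio of the sums was 2.06 ± 0.0358 (SD, n = 5) in PBS and 2.05 ± 0.0452 (SD, n = 6) in A2M* tumours, and lay between 1.99 and 2.12 in all 11. This difference between the groups was smaller than the spread between tumours.

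There were also more large-subunit genes to sum. Per member, the median was 31.6 to 43.2 RPKM for the large and 27.1 to 33.8 RPKM for the small subunit, a ratio of 1.19 on average and of 1.05 to 1.31 across tumours. With the 6 mitoribosome proteins of other symbols added (ICT1 and GADD45GIP1 to the large, DAP3, PTCD3, CHCHD1 and AURKAIP1 to the small subunit), the ratio of sums was 1.66. With MRPS30 and MRPS18A counted in the large subunit, where both sit, and MRPS36 left out, as it belongs to the 2-oxoglutarate dehydrogenase complex, it was 2.25 and the ratio of medians was 1.06, from 0.908 to 1.19, with 3 of the 11 tumours below 1. Without MRPS24 and MRPS18B, whose levels are uncertain, the ratio of medians was 1.11 and 2 tumours were below 1. The direction of this ratio thus turned in some tumours with the members that entered. Per kilobase of the canonical transcript the ratio of medians was 1.88, over 1.5 times the value from deposited RPKM. The counts behind it came from the authors' exons, so that counts and lengths were mismatched for the members described above. The size of the gap between typical members of the subunits thus depended on the lengths used, and 1.88 carries this mismatch.

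PBS-123 stood apart for the members as a group. Relative to each gene's mean over the 11 tumours, in log2 CPM, 67 of the 76 members tested were above their mean in PBS-123. In the other tumours this number lay between 26 and 55. The median deviation in PBS-123 was 0.128 for the large and 0.10 for the small subunit, while the median over all genes tested was 0.004. Without PBS-123, the summed RPKM of the small subunit was 889.0 to 911.2 in the 4 other PBS tumours and no longer overlapped the A2M* range of 923.6 to 982.8. That of the large subunit was 1815 to 1899 and still overlapped the A2M* range of 1875 to 2023. After division by the TMM normalisation factors the small-subunit values were 904.2 to 946.3 and 903.7 to 965.6 and overlapped.

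**Figure D2:**
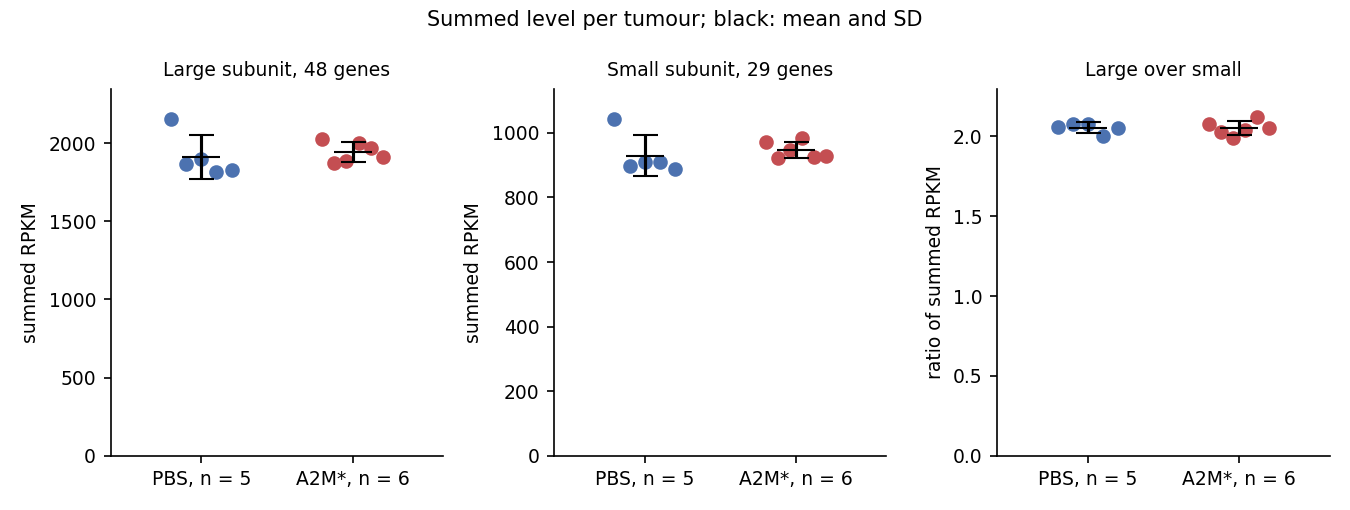
Summed deposited RPKM of the 48 large-subunit and 29 small-subunit genes, and their ratio, in each tumour, with mean and SD per group in black. PBS-123 is the highest point in both sums, and the ratio stays between 1.99 and 2.12.

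Between the groups, no member changed beyond the threshold. The test was the quasi-likelihood test of edgeR on counts, with p-values adjusted by Benjamini-Hochberg over all 16630 genes tested and a threshold of 0.01, and 76 of the 77 members passed the filter on low counts. None of the 76 had an adjusted p under 0.01 in edgeR, where the share among all genes tested was 0.0% as well, and the smallest adjusted p of a member was 0.642. At an unadjusted p under 0.05, 2 members were higher in A2M* tumours (2.63%, against 3.55% of all genes tested) and 1 was lower (1.32%, against 3.53%). DESeq2 and limma-voom also gave 3 of the 76 members at this level, where 1233 and 1179 of the 16630 genes tested had such a p. In no member were the groups separate in normalised CPM, which was the case for 0.71% of all genes tested. The shares of members were thus not above the background.

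The log2 fold changes of the members, A2M* against PBS, were small and of both signs. They lay between -0.148 and 0.19, with 36 above and 40 below 0. Their median was -0.0053 over the large and -0.0076 over the small subunit, and -0.0021 over all genes tested. The standard errors lay between 0.0482 and 0.18. For each of the 76 members the 95% interval stayed within 0.5 on the log2 scale in both directions, which was so for 12389 of the 16630 genes tested. The lowest and highest interval ends were -0.437 (MRPL41) and 0.368 (MRPL57).

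**Figure D3:**
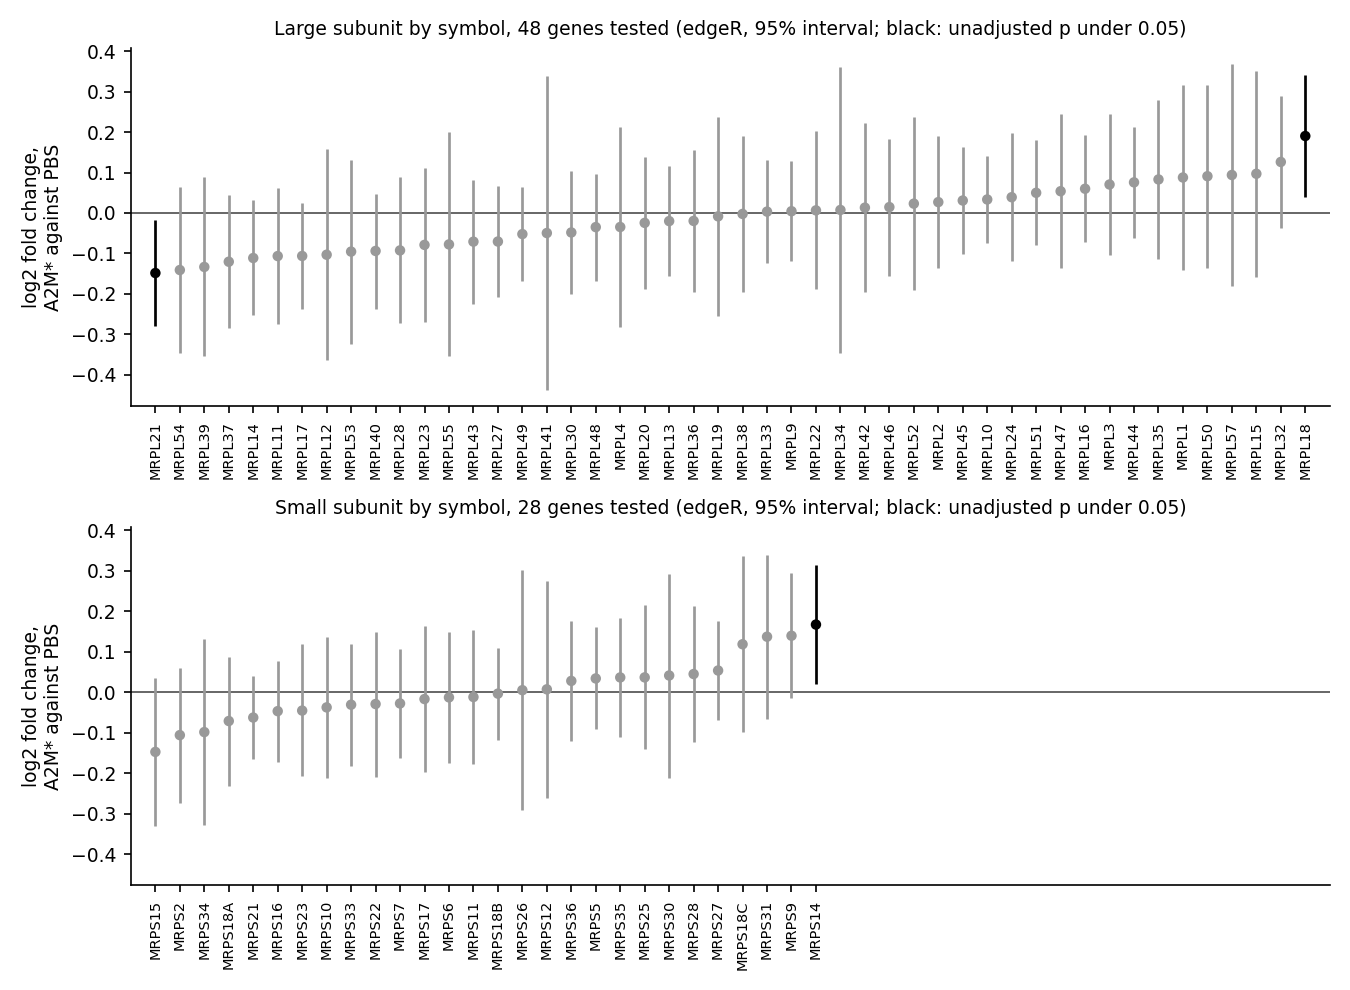
edgeR log2 fold change (A2M* against PBS) of the 76 members tested, sorted by size within each subunit, with 95% intervals. The 3 members with an unadjusted p under 0.05 are black. All points lie between -0.148 and 0.19.

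MRPL18, a protein of the central protuberance, whose bacterial relative holds the ribosomal RNA that the human mitochondrial ribosome has replaced, had the smallest p of the members. It was at 58.5, 54.5, 53.0, 56.2 and 52.7 CPM in PBS-123 to PBS-127 and at 55.5 (lowest), 61.9 (median) and 69.6 (highest) in A2M* tumours. Of the 6 A2M* tumours 5 were above the highest PBS tumour, and 1 lay inside the PBS range. Its log2 fold change in edgeR was 0.19 with a standard error of 0.0697 and an adjusted p = 0.642, and a two-sided exact permutation test of log2 CPM over the 462 labelings of the tumours, whose smallest p is 0.00216, gave p = 0.0195. Its direction and a p under 0.05 were retained in all 20 alternative fits, with values from 0.16 to 0.234. These fits reuse the same tumours.

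MRPS14, the relative of a bacterial protein in the head of the small subunit, was at 16.5, 17.7, 16.2, 16.5 and 16.2 CPM in PBS-123 to PBS-127. In A2M* tumours it was at 17.3 (lowest), 18.8 (median) and 20.2 (highest), and 4 of the 6 were above the highest PBS tumour. The edgeR fold change was 0.17 (log2, standard error 0.0682, adjusted p = 0.651), and the exact permutation test gave p = 0.013. MRPL21, a relative of a bacterial large-subunit protein, went the other way. It was at 59.3, 54.9, 58.2, 55.1 and 51.2 CPM in PBS tumours and at 47.8 (lowest), 49.9 (median) and 53.4 (highest) in A2M* tumours, of which 3 were below the lowest PBS tumour. The edgeR fold change was -0.15 (log2, standard error 0.0607, adjusted p = 0.652), with p = 0.0216 in the exact permutation test. These 3 members are described because their edgeR p was small in the same tumours. The exact tests and the alternative fits are thus not independent of the choice. An unadjusted p under 0.05 was met in 14 of 20 alternative fits for each of MRPS14 and MRPL21. Without PBS-125 or without A2M-129, MRPL18 was the only member left at this level. Without PBS-126, 6 members were (7.89%), against 10% of all genes tested in that fit (1679 of 16755), and the shares of all genes were 4.09% without PBS-125 and 6.53% without A2M-129.

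By place in the ribosome, the members differed little between the groups. Of the 5 stalk proteins, which recruit the translation factors, 4 had a log2 fold change below 0, with a median of -0.10, and none had a p under 0.05. MRPL12, the stalk protein that is also known to bind the mitochondrial RNA polymerase, was at 80.3, 57.2, 62.4, 44.9 and 60.3 CPM in PBS tumours and at 46.6 (lowest), 57.6 (median) and 62.5 (highest) in A2M* tumours. All A2M* tumours lay inside the PBS range, and the log2 fold change of -0.10 had a standard error of 0.121 (edgeR, adjusted p = 0.91, exact permutation test, p = 0.561). Without PBS-123 its sign turned, to 0.015. The 9 proteins of the central protuberance had a median of 0.0034, from -0.094 to 0.19, and the 8 of the tunnel exit a median of 0.0187, from -0.133 to 0.076.

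By descent, the 47 members with a bacterial relative had a median level of 35.5 RPKM and the 28 added in mitochondria 25.2 RPKM. Their median log2 fold changes were -0.01 and 0.0014. The 3 members with a p under 0.05 were among the 46 tested of the first kind (6.52%, against 7.08% of all genes tested in either direction), a share no higher than the background. Among the paralogues, the log2 fold change was -0.07 for MRPS18A (standard error 0.0742, edgeR, adjusted p = 0.90) and 0.12 for MRPS18C (standard error 0.101, adjusted p = 0.867). For both the groups overlapped, and the exact permutation test gave p = 0.34 and p = 0.268. MRPS18B was at 66.7 ± 2.65 CPM in PBS (SD, n = 5) and 66.6 ± 2.32 CPM in A2M* tumours (SD, n = 6). MRPS30, known to sit in the large subunit, was at 27.3 ± 4.08 and 28.0 ± 4.07 CPM, and MRPS36 at 14.6 ± 0.701 and 14.9 ± 0.679 CPM, differences smaller than the spread between tumours.

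The other genes of mitochondrial translation gave few calls as well. Of 60 tested genes in 6 lists (translation factors, assembly factors, transcription and upkeep of mitochondrial DNA, regulators of nuclear genes for mitochondria, and the mitoribosome proteins with other symbols in each subunit), 1 had an unadjusted p under 0.05 (1.67%, against 7.08% of all genes tested) and 0 passed the adjusted threshold. That gene was MTERF3, an assembly factor of the large subunit, at 0.15 on the log2 scale (standard error 0.0717, edgeR, adjusted p = 0.703, exact permutation test, p = 0.0563). Of the 60 genes 42 were above 0 (70.0%), with a median of 0.04, against 8220 of the 16630 genes tested (49.4%) and a median of -0.0021. The 12 translation factors had 10 above 0 and a median of 0.05, the 24 assembly factors 16 and 0.04, and the 10 genes for mitochondrial DNA 8 and 0.04. The 8 regulators tested had 6 above 0 and a median of 0.08. The 6 mitoribosome proteins with other symbols had 2 above 0 and a median of -0.0161. The median standard error of the 60 genes was 0.0807, and no list was tested as a set. Of the factors whose letters were searched in the promoters, YY1 was at 12.7 RPKM, GABPA at 8.90 and NRF1 at 7.63. PPARGC1A, a known coactivator of mitochondrial genes, was at 0.0552 RPKM, 5 to 15 counts, and was not tested.

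The spread between tumours was small for most members. The coefficient of variation of CPM within the groups had a median of 8.44% over the 76 members, 8.84% in the large and 8.11% in the small subunit. The median was 12.9% over all genes tested, and 10.1% over the 9609 genes with a mean CPM inside the range of the members (11.2 to 231). For 51 members it was under 10%, with MRPS21 at 2.64% and MRPL10, a stalk protein, at 2.72% as the steadiest.

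For 7 members the coefficient of variation was over 15%, and all 7 had their lowest PBS value in PBS-126 and their highest in PBS-123. MRPL41, a mitochondrial addition to the large subunit, had a coefficient of variation of 23.6%, at 29.8, 21.9, 23.0, 15.5 and 26.1 CPM in PBS-123 to PBS-127 and 24.8, 21.4, 14.4, 21.6, 31.2 and 21.5 CPM in A2M-128 to A2M-132 and A2M-112. MRPL34, with a bacterial relative, followed at 20.7%, with 27.6 CPM in PBS-126 and 25.7 in A2M-130 against 32.6 to 47.7 in the others. In the small subunit MRPS26 had 17.9%, with 57.6 and 59.3 CPM in those tumours against 70.7 to 99.9 in the others. MRPS12, the relative of a protein at the bacterial decoding centre, had 16.1%, with 23.0 and 24.6 CPM against 27.3 to 39.4. These 4 had their lowest values in PBS-126 and A2M-130, 1 tumour of each group. So did MRPL12 and MRPL57, whereas MRPL55 (17.1%) was lowest among A2M* tumours in A2M-131. The highest A2M* tumour was A2M-132 for MRPL41, MRPL34, MRPS26 and MRPL55 and A2M-128 for MRPS12, MRPL12 and MRPL57.

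MRPL41, MRPL34, MRPS26 and MRPS12 have GC-rich transcripts by GENCODE, with 66.7% G and C in MRPL41, 54.5% in MRPL34, 61.9% in MRPS26 and 59.6% in MRPS12. The GC of the 76 members ranged from 34.8% (MRPS36) to 66.7% (MRPL41). In PBS-126 the median deviation from the mean over tumours was -0.209 log2 for the 25 members with the highest GC and 0.076 for the 25 with the lowest. In A2M-130 these values were -0.181 and 0.097. In A2M-132 they were 0.048 and -0.125, and in PBS-127 they were 0.031 and -0.145. Both subunits did this: in PBS-126 the GC-rich members of the large subunit were at -0.209 and those of the small subunit at -0.248, and in A2M-130 at -0.181 and -0.20. The GC-poor MRPL19 was at 0.272 in PBS-126 and -0.298 in A2M-132, and the GC-rich MRPL41 at -0.523 and 0.485. Not every member followed its GC. MRPL57 was at -0.432 in PBS-126 and at -0.432 in A2M-130, and the GC-rich MRPS15 at -0.008 and -0.035.

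**Figure D4:**
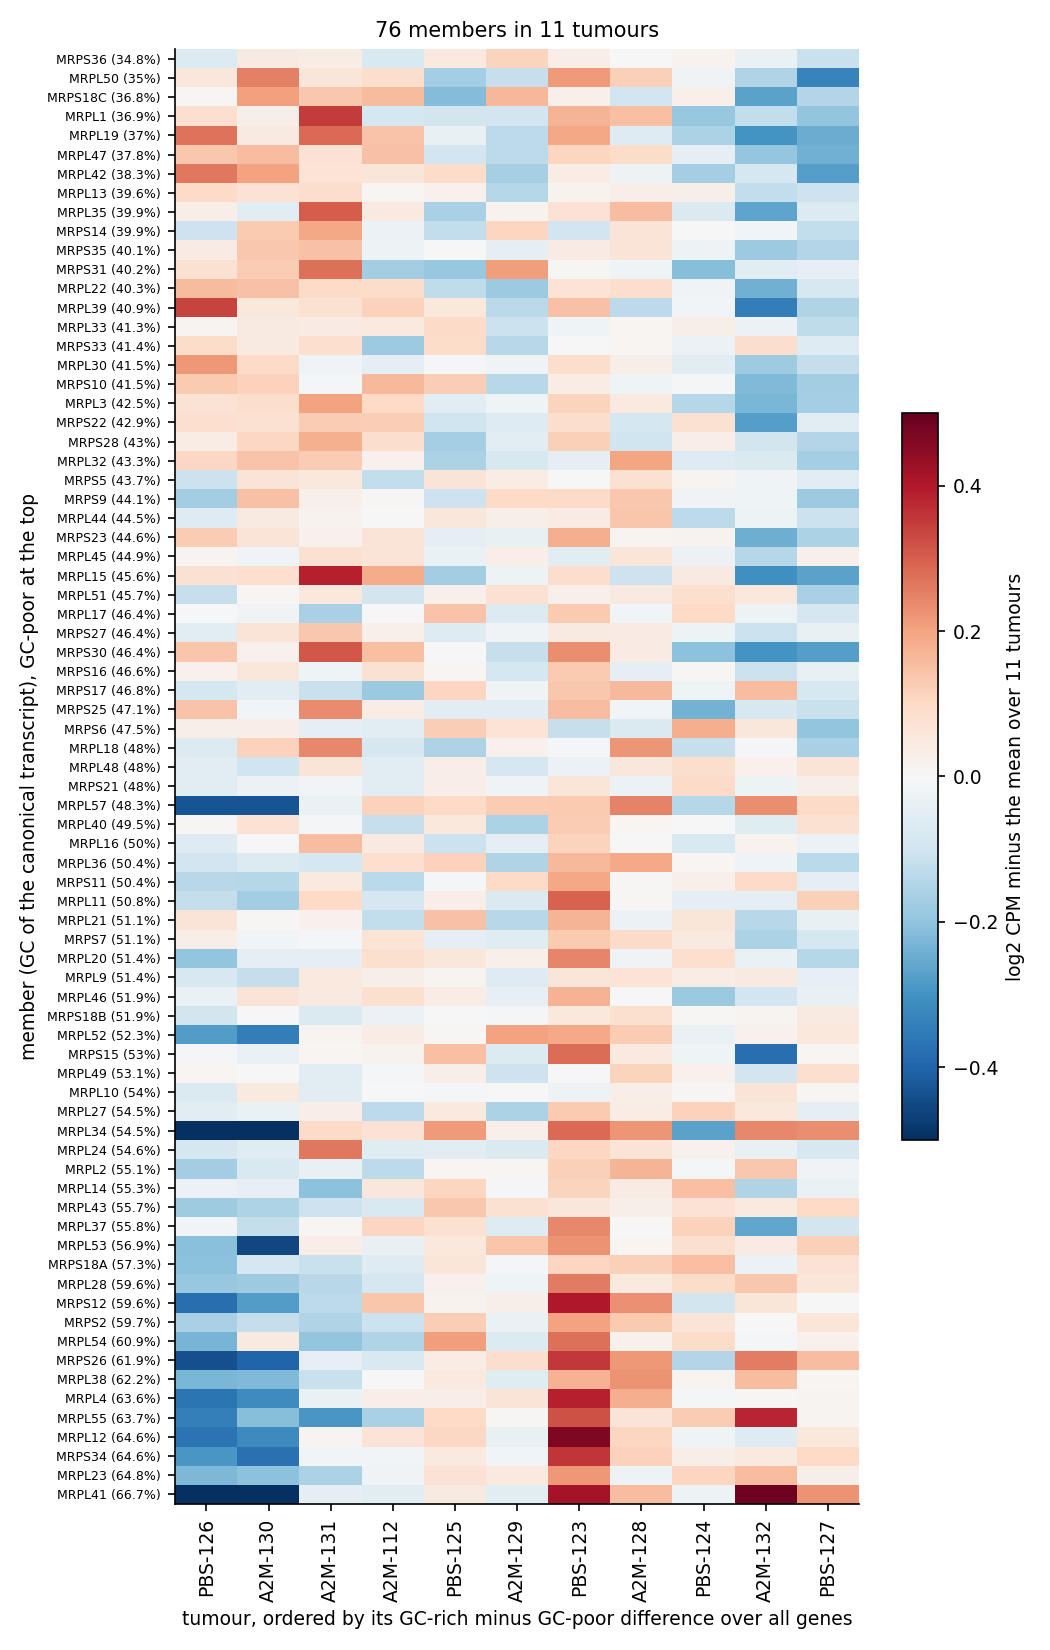
Log2 CPM minus the mean over the 11 tumours for the 76 members, in rows from low to high GC of the canonical transcript. Tumours stand in columns, ordered by the GC-rich minus GC-poor difference over all genes. The lower left (GC-rich members in PBS-126 and A2M-130) is blue and the lower right mostly red, and the upper rows run the other way.

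A like difference between tumours was present over all genes. For 15679 tested genes with a canonical transcript, the slope of the deviations on GC was -0.192 log2 per 10% GC in PBS-126, -0.159 in A2M-130 and -0.0935 in A2M-131, and the highest were 0.0952 in A2M-132 and 0.123 in PBS-127. For the 25 members and the 5226 genes at each end of GC, the difference between GC-rich and GC-poor in PBS-126 was -0.34 over all genes and -0.284 over the members, and in A2M-130 it was -0.261 and -0.277. In PBS-123, where the members were high, it was 0.105 and 0.183. The sign of this difference was the same for members and for all genes in each of the 11 tumours. Both groups held tumours at each end. After each tumour's line on GC was subtracted, the median coefficient of variation of the members was 7.26%. The lines were fitted to the same tumours, and no value for all genes after this step is given. The fall from 8.44% can thus not be read as particular to the members.

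**Figure D5:**
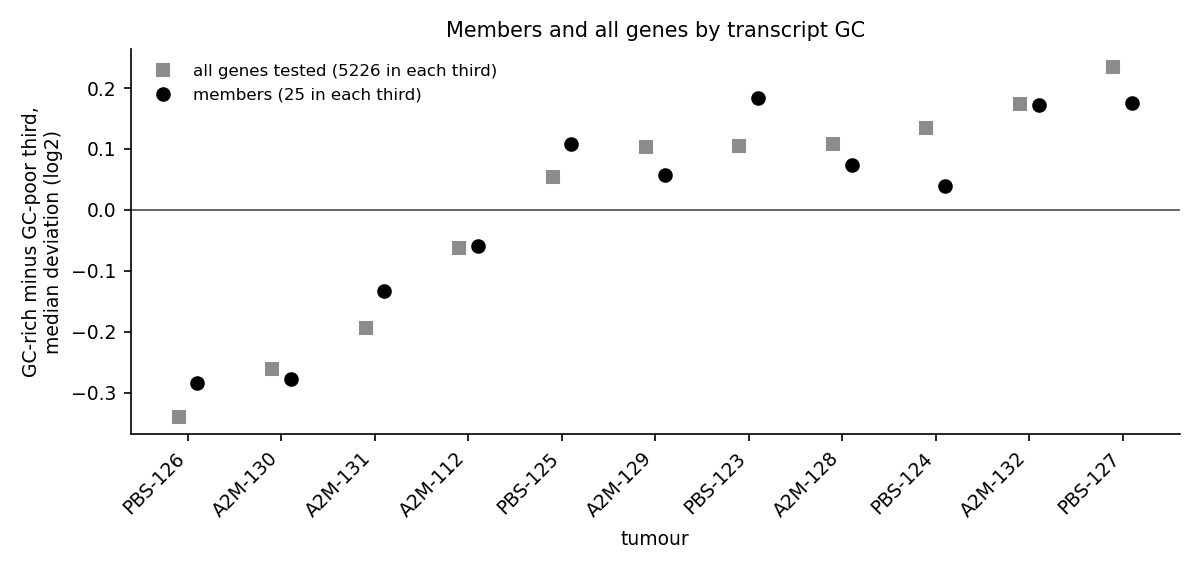
Median deviation (log2) of the GC-rich genes minus that of the GC-poor genes in each tumour, for members (circles) and all genes tested (squares). From PBS-126 to PBS-127 the squares run from -0.34 to 0.235 and the circles from -0.284 to 0.176, with tumours of both groups along the way.

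Members also varied together over the tumours, with values that differed by GC. Over the 11 tumours, which share depth and GC differences, the median Pearson r of log2 CPM was 0.16 over the 2850 pairs of members, 0.19 within the large subunit, 0.12 within the small subunit and 0.15 between them, and 0.0 over all pairs of genes tested. The values within and between the subunits lay close together. Split by GC, the median r was 0.59 within the 25 GC-rich members, 0.47 within the 25 GC-poor members and -0.22 between them, and for all genes these were 0.27, 0.22 and -0.25. After subtraction of each tumour's line on GC, the median r of members was 0.27 within the large, 0.27 within the small subunit and 0.27 between them, 0.29 and 0.35 within the GC-rich and GC-poor members and 0.25 between them, whereas over all genes it stayed at 0.0. MRPL46 and MRPS11, which share a start region, had an r of 0.05 (n = 11 tumours), no higher than that of a typical pair. The pairs of all genes were not matched to the members by level. PBS-123, with 67 of the 76 members above their mean, is 1 of the 11 tumours, and its part was not tested. These coefficients describe 11 tumours and carry no test.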

How the data were processed

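RNA of 11 PC-3 tumours, 5 of PBS-treated and 6 of A2M*-treated mice, had been sequenced from total RNA with an Illumina TruSeq kit, which does not mark strand. The authors sorted reads by species with xenome, aligned the human ones with TopHat (hg19) and counted per RefSeq gene with featureCounts. The submitters' processing notes name bcl2fastq 1.8.4. The strand setting and the handling of reads shared by genes are not given in the sources used here. The deposited counts are whole numbers without normalisation. The deposited RPM divide each count by the tumour's total (largest difference from this 4.99e-07), and the deposited RPKM divide RPM by exon length, which was the same in every tumour to within 0.0233 bases for 21255 genes. Mouse reads were not used here.

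Tumours were grouped by their labels and were not paired, since the groups share no numbers. Nothing tells litters or days apart, and p-values measure the spread between these tumours. Counts were filtered with filterByExpr, normalised with TMM and tested with edgeR 4.0.16 (quasi-likelihood, R 4.3.3), with Benjamini-Hochberg adjustment over 16630 genes and a threshold of 0.01. The standard error was the log2 fold change divided by the square root of F. log2 CPM had a prior count of 2. The steps were tested on simulated data. Single named genes also got a two-sided exact permutation test of log2 CPM. Levels, sums, ratios and correlations are descriptions without tests. Transcript lengths, GC and overlaps came from GENCODE on GRCh37 (21497 genes matched by symbol), and promoters from RefSeq on GRCh38.p14 (68 members matched). Alternatives were RLE, upper quartile and library size scaling, other count filters, DESeq2 1.42.0, limma-voom (limma 3.58.1), each tumour left out, other subunit assignments, and settings added after the data were seen (2 tumours left out together, GC slope as covariate or subtracted, canonical lengths, TMM-scaled RPKM, MRPS24 and MRPS18B left out).

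The members and gene lists were chosen with earlier results of these data known. Named were the 3 highest and 3 lowest members of each subunit in RPKM, those with an unadjusted p under 0.05 (at most 6 in each direction), those with separate groups, the 2 with the highest coefficient of variation in each subunit, MRPS18A, MRPS18B, MRPS18C, MRPL12, MRPS30 and MRPS36, and from the other lists up to 3 genes in each direction with p under 0.05. Other genes were named after their values were seen. Figures were drawn with matplotlib 3.10.9.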

Additional observations from a re-analysis of the deposited data

Results flagged for a closer look

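Values were marked where the highest or lowest tumour of a group lay far from the others by Dixon's criterion. It was applied to 54 groups of values, of which chance marks about 1 in 20, that is 2.7, and 6 were marked. The groups share tumours, and some members were named for a large spread or a small p. The 6 can therefore not be read as an excess over 2.7. PBS-123 stood above the other PBS tumours in the summed RPKM of the large subunit, at 2153 against 1815 to 1899, and of the small subunit, at 1043 against 889 to 911. A2M-130 was low for MRPL34, at 25.7 CPM against 39.9 to 46.3, and PBS-126 was low for MRPS18A, at 32.0 CPM against 38.5 to 41.1. Both are the tumours in which GC-rich transcripts were lowest over all genes, with slopes of -0.159 and -0.192 log2 per 10% GC, and the part of this in the 2 values was not tested. PBS-124 was high for MRPS14, at 17.7 CPM against 16.2 to 16.5, and A2M-112 was low for MRPS21, at 84.6 CPM against 86.2 to 87.2.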

How the results depend on the processing

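In edgeR no gene had an adjusted p under 0.01 under the other normalisations and filters or with any tumour left out, nor in limma-voom, whereas DESeq2 called 1 gene (REP15, no member) and 241 genes, 0 of them members, had an unadjusted p up to 0.01 by edgeR as well as by DESeq2; the cause was not tested. The number of members with an unadjusted p under 0.05 was between 1 and 6 when 1 tumour was left out (1.32% to 7.89%), and the share of all genes tested between 4.09% and 10.1%. The median log2 fold change of the members stayed between -0.0242 and 0.0367. The ratio of summed RPKM was 2.25 with MRPS30 and MRPS18A in the large subunit, 1.66 with proteins of other symbols, 2.11 without the most abundant member of each subunit and 2.2 per canonical kilobase; for the ratio of medians these were 1.06 for the first, 1.3 without the most abundant members and 1.88 per canonical kilobase. These shifts come with the genes and lengths that enter, and the canonical lengths do not match the exons that were counted. The median coefficient of variation was 7.26% after the lines on GC were subtracted. Of the named fold changes MRPL12 ran from -0.195 to 0.015 with 1 tumour left out, and MRPL18, MRPS14, MRPL21, MRPS18A and MRPS18C kept their sign in all 20 alternative fits. No paired analysis was possible because the groups share no tumour numbers. With 5 and 6 tumours and standard errors of up to 0.18, changes of the size of the members' fold changes can be missed. None passed the adjusted threshold of 0.01, and the smallest adjusted p of a member in edgeR was 0.642.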
